A study of Mus musculus with 24 samples.

Results

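The effect of deleting Gata4 on acetylation of lysine 27 of histone H3 (H3K27ac) that fasted and refed mouse liver had in common was measured by setting 6 knockout livers against 6 control livers, with feeding state held as a factor. These 12 ChIP-seq libraries were chosen from the 24 samples of the series by their labels, and all 63686 regions of the signal table entered the comparison. The other 12 samples were input libraries, not analysed here. The mice were C57BL/6J males with both Gata4 alleles floxed (Gata4 fl/fl), injected at 8 weeks of age and killed 7 days later, at 9 weeks. Knockout mice had received the vector AAV8-Tbg-Cre, in which a hepatocyte promoter drives the Cre recombinase, and control mice an empty AAV8. Each genotype was sampled after a 12 h fast (fasted, 3 mice) or after a 12 h fast and 12 h of a high-sucrose diet with 69% sucrose and 10% fat (refed, 3 mice). Cre was carried by the knockout vector and not by the control vector, so an effect of Cre itself and of the deletion cannot be told apart. The labels give the 3 mice of each group a number of their own and do not say what it stands for. Any effect of housing or litter thus cannot be told apart from that of the group. The Tbg promoter is active in hepatocytes, so deletion in other liver cells would not follow from this vector, and Gata4 was not measured by cell type.

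GATA4 is a zinc-finger transcription factor that binds GATA motifs in promoters and enhancers. In the liver it is found in hepatocytes and in sinusoidal endothelial cells, and in embryonic endoderm it acts with FOXA factors to open chromatin at liver genes such as Alb. H3K27ac marks active promoters and enhancers, so a region that loses it carries less of a mark of activity, whereas the mark alone does not measure transcription.

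The libraries held 22150912 to 30419424 reads in regions. Refed controls (at least 27399600) were deeper than refed knockouts (at most 23613013), and the fasted groups overlapped in depth. The first principal component of the log2 values carried 47.3% of the variance and separated the feeding states, and the second, with 11.3%, separated the genotypes without overlap, with controls between 17.6 and 88.5 and knockouts between -70.5 and -21.5. The strongest region of each of 8 hepatocyte markers, Alb, Apoa1, Apob, Ttr, Serpina1a, Cps1, Hnf4a and Cyp3a11, ranked at or above the 82.3rd percentile of the 16313 genes with a region. The labels do not say which exons of Gata4 are floxed, so H3K27ac at Gata4 does not check the deletion. All values below are normalized reads per region as deposited. Changes are log2 differences of knockout minus control, averaged over the feeding states with equal weight, with their standard error (SE). They were tested with limma, and a region was called where its p was under 0.05 after Benjamini-Hochberg adjustment across the 63686 regions. A region bears the name of the gene with the nearest start, which does not show that it acts on that gene. P-values measure the spread between these mice.

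Averaged over the feeding states, 2473 regions (3.88% of all) differed between genotypes. In the knockout 1906 regions (2.99%) were higher and 567 (0.89%) lower, near 1431 and 481 genes. The higher regions had a median log2 difference of 0.63 and the lower ones of -0.47, and differences above 2-fold were found in 387 higher and 97 lower regions. All 3 knockout libraries lay above all 3 controls in both feeding states in 1060 of the higher regions (55.6%), and below them in 354 of the lower regions (62.4%). Such separation was met in 3.04% and 1.31% of all regions, but calls and separation rest on the same values. The count rested on several libraries: 891 regions were called without knockout fasted mouse 1, 1233 without knockout refed mouse 1, 1396 without control fasted mouse 1, 1410 without knockout fasted mouse 2, 1447 without knockout refed mouse 3 and 1464 without knockout refed mouse 2.

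Pooling the states gave calls that neither state gave alone. Of the higher regions, 161 were also called in fasted and 709 in refed liver (background 0.312% and 1.73%), 27 in both and 1063 in neither. Of the lower regions, 117 were also called in fasted and 138 in refed liver (background 0.245% and 0.297%), 26 in both and 338 in neither. The average is the mean of the 2 state effects of the same fit. An overlap above the background is therefore built in and is no separate evidence. The 2 states moved in opposite directions in 43 higher and 10 lower regions. The test of the difference between the states (the interaction of genotype and feeding) called 15 regions, 0.0236% of all. The refed knockout effect minus the fasted one was positive in 10 of them (0.0157%) and negative in 5 (0.00785%). Of the 15 regions, 6 were among the 2473. When each state was fitted alone, so that the 2 sets of libraries were independent, 38 regions were called lower in fasted liver (0.0597%), and 31 of them (81.6%) were also lower in refed liver, a direction found in 36.4% of all regions. Of 159 regions called lower in refed liver alone (0.25%), 115 (72.3%) were lower in fasted liver against 44.0% of all regions. Of 514 called higher in refed liver alone (0.807%), 396 (77.0%) were higher in fasted liver against 55.9% of all regions. The 21 regions called higher in fasted liver alone (0.033%) were higher in refed liver in 13 cases (61.9%), against 63.6% of all regions, and in 33.3% with an unadjusted p under 0.05, against 14.5% of all regions. With cyclic loess 67 regions were called higher in fasted liver alone, and 68.7% of them were higher in refed liver against 50.6% of all regions. For regions called lower in fasted liver the share was 76.8% against 49.4%. Regions called in refed liver gave 73.8% against 50.4% for higher and 74.6% against 49.6% for lower. The loess scaling was done over all 12 libraries before the states were split, so the 2 sets of libraries were not independent.

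The excess of higher over lower regions depended on how the libraries were scaled. With the deposited scaling 77.1% of the called regions were higher, but the counts became 1140 higher and 848 lower with TMM factors and 1092 and 1048 with median-ratio factors. Quantile normalization gave 742 and 547, and cyclic loess 894 and 494. Over all regions the median log2 difference was 0.08 as deposited, 0.03 with TMM and 0.01 with cyclic loess. As deposited it fell with signal level, from 0.23 in the lowest of 10 equal groups of regions to -0.04 in the highest. With reads thinned to the depth of the shallowest library the lowest group stayed at 0.24, and cyclic loess brought it to 0.02. In all 5 scalings 565 regions were called higher (0.887%) and 389 lower (0.611%).

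**Figure D1:**
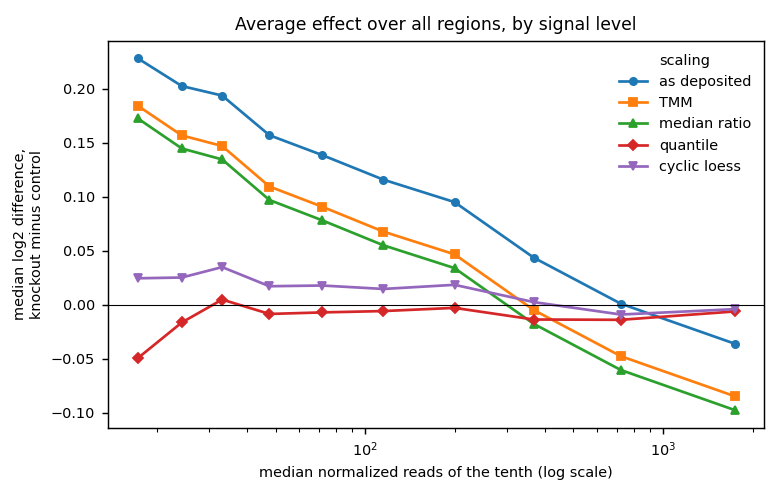
Median log2 difference in H3K27ac, knockout minus control averaged over the feeding states, in 10 equal groups of regions ordered by mean signal (horizontal axis, normalized reads, log scale), for 5 scalings of the same 12 libraries. As deposited the line runs from 0.23 in the weakest group to -0.04 in the strongest, and with cyclic loess the weakest group lies at 0.02.

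Regions that lost acetylation were GATA4-bound more often than all regions, whereas the share among those that gained it depended on the scaling. The authors' deposited table marks 5292 regions (8.31%) as lying within 500 bp of a GATA4 ChIP peak, and the libraries behind those peaks were not used here. Of the lower regions 196 (34.6%) were GATA4-bound, against 91 of the higher regions (4.77%) and 8.18% of the regions that were not called. Read the other way, 3.70% of GATA4-bound regions were lower and 1.72% higher, whereas 0.635% of the unbound regions were lower and 3.11% higher. Among higher regions the bound share was 8.89% with quantile normalization and 8.50% with cyclic loess, near that of all regions. With these scalings 1.25% and 1.44% of bound regions were higher, against 1.16% and 1.40% of unbound ones. Lower regions were also wider (median 3988 bp against 1557 bp of all regions) and stronger (median 626 normalized reads against 90.6), and wide, strong regions have more room for a peak. In the strongest of 4 equal groups by signal 4.61% of the bound and 1.56% of the unbound regions were lower, and in the next group 4.24% and 0.612%. In the widest of 4 equal groups by width the shares were 4.80% and 1.61%. Among regions called in all 5 scalings 36.8% of the lower and 3.54% of the higher were GATA4-bound. The shares are given as a description, without a test across regions.

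**Figure D2:**
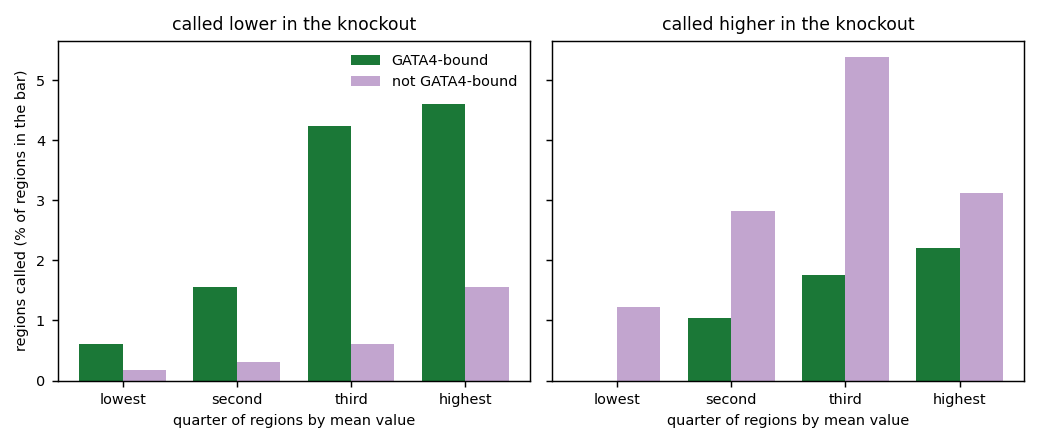
Share of regions called lower (left) and higher (right) in the knockout, in percent of the regions in each bar, for GATA4-bound and unbound regions in 4 equal groups by mean signal. In the strongest group 4.61% of bound and 1.56% of unbound regions were lower, while 2.21% of bound and 3.12% of unbound regions were higher.

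The size of the change was described for bound and unbound regions. The 196 GATA4-bound lower regions had a median log2 difference of -0.48 and the 371 unbound ones of -0.46. Taken by state, the medians of the bound ones were -0.47 in fasted and -0.41 in refed liver. The 91 GATA4-bound higher regions had a median of 0.40 and the 1815 unbound ones of 0.65. Location differed as well. Of the 12381 regions that span the start of their gene, 208 (1.68%) were lower and 122 (0.985%) higher, while of the 51305 regions away from a start 359 (0.70%) were lower and 1784 (3.48%) higher. Higher regions lay a median of 22178 bp from the nearest start and lower regions 11953 bp. Regions that span a start were stronger (median 670 normalized reads against 61.8), and as deposited the log2 difference fell with signal level. The location shares were not computed within levels of signal or with other scalings.

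Of the named genes with a GATA4-bound region over their start that was called lower, 8 had a promoter in the RefSeq table, and 3 of these 8 held a GATA motif word. Shown are those 3 and, as 1 of the 5 without a word, Cyp8b1: Hnf4a, which encodes a master regulator of hepatocyte genes, Atf4, a stress-response transcription factor, Gckr, the glucokinase regulatory protein, and Cyp8b1, which encodes the sterol hydroxylase that sets the balance of bile acid species. They are taken from RefSeq on build GRCm38.p6, from 250 bases before to 50 after the start on the gene's strand, at chr2:163506607-163506906 (plus strand), chr15:80254934-80255233 (plus), chr5:31297313-31297612 (plus) and chr9:121916256-121916555 (minus). They were matched to the regions, which are on mm9, by gene symbol alone. Capitals mark the GATA motif. The words searched on both strands were AGATAA and also TGATAA, together with the word AGATAG and also TGATAG.
Hnf4a: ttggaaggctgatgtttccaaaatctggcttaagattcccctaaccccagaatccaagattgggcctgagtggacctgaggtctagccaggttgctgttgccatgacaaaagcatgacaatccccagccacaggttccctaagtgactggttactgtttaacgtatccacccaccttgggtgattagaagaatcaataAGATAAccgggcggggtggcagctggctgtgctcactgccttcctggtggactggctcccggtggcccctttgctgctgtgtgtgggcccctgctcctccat
Atf4: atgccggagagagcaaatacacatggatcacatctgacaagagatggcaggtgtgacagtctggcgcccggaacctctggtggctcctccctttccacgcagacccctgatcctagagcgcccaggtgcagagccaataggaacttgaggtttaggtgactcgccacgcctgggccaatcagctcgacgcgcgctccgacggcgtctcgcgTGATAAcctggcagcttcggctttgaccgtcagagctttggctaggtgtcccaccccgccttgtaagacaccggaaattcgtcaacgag
Gckr: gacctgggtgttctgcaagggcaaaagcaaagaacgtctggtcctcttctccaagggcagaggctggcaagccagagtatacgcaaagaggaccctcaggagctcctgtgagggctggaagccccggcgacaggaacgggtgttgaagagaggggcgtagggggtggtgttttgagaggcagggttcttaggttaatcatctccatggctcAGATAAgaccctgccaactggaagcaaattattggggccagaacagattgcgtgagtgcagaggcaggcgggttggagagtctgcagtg
Cyp8b1: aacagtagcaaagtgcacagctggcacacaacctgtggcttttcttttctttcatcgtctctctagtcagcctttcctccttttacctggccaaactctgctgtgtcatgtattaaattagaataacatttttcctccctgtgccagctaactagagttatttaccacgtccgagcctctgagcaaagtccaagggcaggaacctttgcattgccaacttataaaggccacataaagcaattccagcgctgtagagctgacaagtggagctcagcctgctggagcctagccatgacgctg
The first 3 hold 1 such word each. None lies in the Cyp8b1 window or in those of Cp, Klf15, Adk and Tsc22d3, which are not printed. Of all 27025 RefSeq promoters of this length 30.2% held a word. The share was 19.1% of the 9098 matched genes with a region over the start, 30.9% of the 1102 with a GATA4-bound one and 21.3% of the 47 whose bound region was lower. A word is not a binding site, and the windows cover only a small part of the regions.

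Among called regions with a mean no lower than that of the median region, and with all 3 knockouts on one side of all 3 controls in each state, the largest changes were taken, 1 region per gene. The 12 largest falls by this rule had log2 differences between -2.89 and -1.27 and included 8 GATA4-bound regions. Of all lower regions 34.6% were bound. None of the 12 falls spans the start of its gene, and 9 lay between genes and 3 in introns. A GATA4-bound region 15549 bp upstream of Ccl2, the chemokine that draws monocytes, at chr11:81831804-81835256, held 349, 373 and 359 normalized reads in fasted controls and 123, 126 and 161 in fasted knockouts. In refed liver it held 634, 672 and 689 in controls and 188, 178 and 529 in knockouts. All knockouts lay below all controls in both states, although knockout refed mouse 3 kept much of the signal. The region fell by 1.38 (SE 0.20, adjusted p = 0.00405), and it was 1 of 4 called lower near Ccl2, out of 6 regions, of which 2 kept the call with each library left out. Their summed value was 845 to 910 in fasted controls, 370 to 481 in fasted knockouts, 1339 to 1408 in refed controls and 476 to 1220 in refed knockouts.

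Muc13 encodes a membrane mucin of epithelia, and a GATA4-bound region 21151 bp upstream, at chr16:33772167-33773776, held 95.1, 90.1 and 161 in fasted controls and 25.1, 30.8 and 33.8 in fasted knockouts. In refed liver the controls held 125, 164 and 222 and the knockouts 48.4, 39.8 and 84.0. The groups did not overlap in either state, and the region fell by 1.73 (SE 0.21, adjusted p = 0.00146). A GATA4-bound region 44789 bp from Atxn7l3b, which encodes an ataxin-like protein, held 510, 279 and 409 in fasted controls and 79.4, 162 and 114 in fasted knockouts, then 221, 144 and 179 in refed controls and 60.7, 54.6 and 78.6 in refed knockouts. It fell by 1.62 (SE 0.19, adjusted p = 0.00104), the smallest adjusted p of the 12 falls. Near L1td1, an RNA-binding protein gene derived from a retrotransposon, a bound region (chr4:98358262-98362249) was higher after refeeding in both genotypes and lower in knockouts in both states. It held 43.9, 57.9 and 41.3 in fasted controls, 7.04, 19.8 and 27.5 in fasted knockouts, 217, 390 and 367 in refed controls and 76.5, 28.5 and 53.8 in refed knockouts (log2 difference -2.09, SE 0.30, adjusted p = 0.00356).

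A region near Nudt13, which encodes a nudix hydrolase, was unbound and moved alike in both states. Fasted controls held 80.5, 79.0 and 53.9 and fasted knockouts 18.1, 33.02 and 33.8, and refed controls held 359, 370 and 310 and refed knockouts 136, 124 and 143. It fell by 1.34 (SE 0.17, adjusted p = 0.00146). Other falls were near Fzd8, a Wnt receptor, Smek1, a regulatory subunit of protein phosphatase 4, Fam13b, Evi5l, Dntt and Trio. The regions of Fzd8 (-2.89), Smek1 (-1.57) and Fam13b (-1.32) kept the call with each library left out. Evi5l lost it in 5 of 12 such fits (highest adjusted p 0.0614), Dntt in 3 (0.0529) and Trio in 9 (0.108).

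None of the 12 largest rises by the same rule was GATA4-bound, beside 4.77% of all higher regions and 8.31% of all regions. With 12 regions, none bound is close to these shares. The 12 rises spanned log2 differences from 1.43 to 2.30, and 6 lay between genes and 5 in introns. The largest of them was at chr12:28623577-28633063, 600737 bp from Sox11, a transcription factor of developing neurons, which is the nearest gene start. It held 162, 244 and 232 normalized reads in fasted controls and 1327, 1170 and 594 in fasted knockouts. Refed controls held 266, 354 and 108 and refed knockouts 1148, 1819 and 698. Every knockout exceeded every control, and the difference was 2.30 (SE 0.29, adjusted p = 0.00151).

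An intronic region of Nr1d2, which encodes the clock repressor REV-ERB beta, was at 42.1, 68.9 and 74.6 in fasted controls against 224, 245 and 118 in fasted knockouts, and at 60.2, 65.9 and 50.6 against 143, 175 and 109 in refed liver. It rose by 1.43 (SE 0.20, adjusted p = 0.00306), while the strongest region of none of the 21 measured clock genes was called. Defb1 encodes an antimicrobial beta-defensin, and the region over its start was the only one of the 12 rises that spans a start. Fasted controls held 82.3, 112 and 118 and fasted knockouts 210, 194 and 224, and refed controls held 11.7, 8.35 and 5.33 against 96.7, 21.6 and 37.7 in refed knockouts (log2 difference 1.65, SE 0.29, adjusted p = 0.0098). Other rises were near Mtmr10, a lipid phosphatase relative (1.97), Nrn1, which promotes neurite growth (1.93), Tnks, Ccin, Bhlhe23, Zfp572, Sh3bgrl2 and Fam69c. Zfp572 lost the call in 4 of 12 fits with 1 library left out (highest adjusted p 0.0555), and the others named here kept it.

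**Figure D3:**
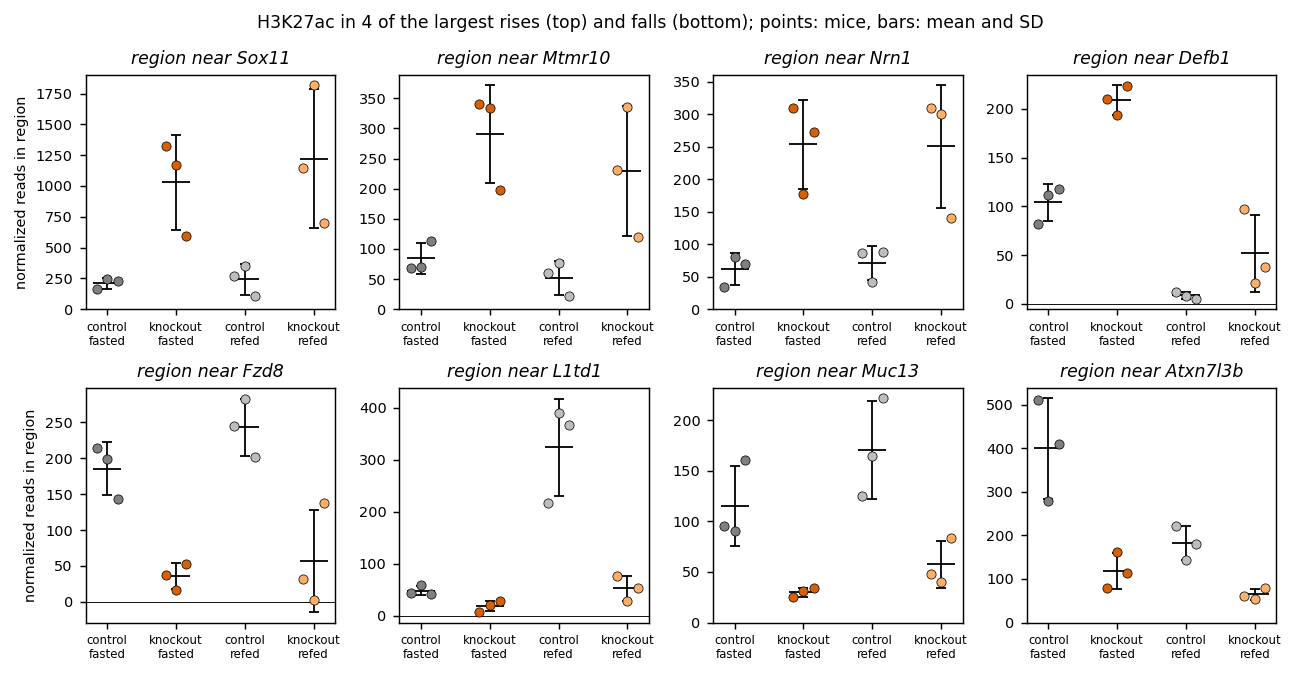
Normalized H3K27ac reads (vertical axes, linear) in each of 12 mice for 4 of the 12 largest rises (top) and 4 of the 12 largest falls (bottom); dashes are means and bars SDs of 3 mice. In each panel and feeding state the 3 knockout points lie on one side of the 3 control points, as in the Sox11 region, where fasted controls span 162 to 244 and fasted knockouts 594 to 1327.

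Some genes had several called regions. Near Dynlrb2, a dynein light chain gene, 8 of 35 regions were higher over 66.5 kb, and near Cmip, an adaptor protein gene, 8 of 19 were higher over 75.3 kb. The 8 Dynlrb2 regions together held 1436 to 1877 in fasted controls, 1947 to 2463 in fasted knockouts, 459 to 567 in refed controls and 980 to 1048 in refed knockouts. At Slc22a23, a transporter gene, and at Gse1 7 regions each were higher, and at 2610203C22Rik 6 of 6 were. In all 5 scalings the call held for 3 of the 8 Dynlrb2 regions and 4 of the 8 Cmip regions. It held for 1 of 7 at Slc22a23, 0 of 7 at Gse1 and 3 of 6 at 2610203C22Rik. The regions of Dynlrb2, Cmip and Gse1 all lie on chromosome 8, between positions 118863519 and 123054264. What the group numbers stand for is not given, so any effect of litter or housing cannot be told apart from genotype there. Among the falls, Zfp445, a zinc-finger gene involved in genomic imprinting, had 4 of 7 regions lower over 22.3 kb with log2 differences of -1.33 to -0.55, all called in all 5 scalings. Their sums were 2698 to 3388 in fasted controls, 1278 to 1885 in fasted knockouts, 1489 to 2474 in refed controls and 907 to 1655 in refed knockouts, so that the refed groups overlapped. Alb, which encodes serum albumin, had 4 of 12 regions lower, 2 of them GATA4-bound, all upstream of its start. The summed value of these 4 was 5776 to 7715 in fasted controls, 4738 to 5461 in fasted knockouts, 4783 to 5149 in refed controls and 3061 to 4143 in refed knockouts. With each library left out, 1 of the 4 calls held at Alb, 1 of 4 at Zfp445 and 2 of 8 at Dynlrb2. Neighbouring regions share broad stretches of signal and are not independent of each other.

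Among the 6 genes followed by name, no strongest region was called. That of Gata4 held 3464, 3535 and 3784 in fasted controls, 4157, 4177 and 3879 in fasted knockouts, 5161, 5036 and 4745 in refed controls and 5124, 5589 and 5756 in refed knockouts. The fasted groups did not overlap and the refed groups did, with a log2 difference of 0.16 (SE 0.045, adjusted p = 0.0612). The values were 0.32 (adjusted p = 0.129) for Gata6, the GATA factor most like GATA4, -0.13 (0.161) for Abca1, the cholesterol exporter that forms HDL, -0.04 (0.775) for Scarb1, the HDL receptor, 0.07 (0.808) for Cyp7a1, which starts bile acid synthesis, and 0.34 (0.809) for Hamp, which encodes the iron hormone hepcidin.

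Abca1 nevertheless had a called region at a GATA4 peak. At chr4:53198083-53200828, 26689 bp upstream of the start, fasted controls held 270, 199 and 248 and fasted knockouts 113, 131 and 136, and refed controls held 178, 212 and 237 against 154, 172 and 184 in refed knockouts. The fasted groups did not overlap, the refed groups overlapped at 1 value, and the region fell by 0.60 (SE 0.11, adjusted p = 0.0131), a call kept with each library left out (highest adjusted p 0.0383). An unbound intronic region of Abca1 was higher (0.54, SE 0.13, adjusted p = 0.0375), a call lost in 9 of 12 fits with 1 library left out. Single regions of Gata4 (0.48, SE 0.11, adjusted p = 0.0283) and Gata6 (0.47, SE 0.11, adjusted p = 0.0274) were also higher, and their calls were lost in 6 and 4 of these fits, with adjusted p up to 0.0684 and 0.0628.

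Gene lists were read with 1 region per gene, the one with the highest mean. Over all 16313 genes 330 were higher (2.02%) and 282 lower (1.73%), 3.75% together, with a median log2 difference of -0.01, and 36.2% of the lower genes were GATA4-bound against 13.1% of all. Of the 619 list genes with a region 11 were higher (1.78%) and 29 lower (4.68%), and 16 of the 29 lower genes and 1 of the 11 higher ones were GATA4-bound, against 24.9% of the list genes. The bound share differed between lists. It was 16 of 27 sinusoidal endothelial markers and 11 of 26 hepatocyte transcription factors. In contrast, 3 of 33 growth hormone and sex-biased genes and 3 of 23 cholesterol synthesis genes were bound. Why list genes were bound more often than all genes was not tested. Without the intensity trend 4 list genes were called in place of 40.

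Hepatocyte transcription factors included 2 lower genes of 26 measured, with a list median of -0.06. The Hnf4a region held 6272, 5775 and 6082 in fasted controls and 5358, 5312 and 5423 in fasted knockouts, then 6471, 6438 and 6359 in refed controls and 5531, 5014 and 5426 in refed knockouts. Although the difference was small (-0.22, SE 0.039, adjusted p = 0.00926), the groups did not overlap in either state. Klf15, a fasting-induced factor of amino acid catabolism, differed by -0.25 (SE 0.049, adjusted p = 0.0142). Both are GATA4-bound, as is Zfpm1, which encodes the GATA cofactor FOG1 and was the 1 lower gene of 8 GATA factors and cofactors (-0.31, SE 0.062, adjusted p = 0.0159). Klf15 and Zfpm1 lost the call under quantile normalization and cyclic loess.

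Fetal liver genes had 2 lower members of 12, with a list median of 0.03. Afp, the fetal counterpart of albumin, had a GATA4-bound region 5747 bp upstream, where fasted controls held 474, 477 and 396 and fasted knockouts 254, 248 and 249.3. Refed controls held 276, 252 and 228 and refed knockouts 144, 135 and 205, again without overlap (log2 difference -0.75, SE 0.11, adjusted p = 0.00356). Zbtb16, a zinc-finger factor gene, was the other (-0.56, SE 0.14, adjusted p = 0.0402), a call lost in 9 of 12 fits with 1 library left out (highest adjusted p 0.0843).

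Sterol and bile acid genes moved in few members. LXR targets had 2 lower genes of 18 and none higher, with a median of -0.11. These were Abcg8, a subunit of the sterol exporter into bile (-0.41, SE 0.090, adjusted p = 0.0235), and Pltp, the phospholipid transfer protein (-0.32, SE 0.072, adjusted p = 0.0258), and their calls were lost in 4 and 3 of the 12 fits with 1 library left out (highest adjusted p 0.0614 and 0.0673). Cholesterol synthesis had 1 higher gene, mevalonate kinase Mvk (0.73, SE 0.14, adjusted p = 0.0141), and 1 lower, Fdps (-0.38, SE 0.095, adjusted p = 0.0403), of 23, and the Fdps call was lost in 10 of the 12 fits. Bile acid genes had 1 higher and 1 lower of 30. Abcc4, an efflux pump for bile acids, held 321, 355 and 246 in fasted controls, 577, 573 and 531 in fasted knockouts, 262, 153 and 242 in refed controls and 307, 318 and 353 in refed knockouts. Its groups did not overlap, and it rose by 0.74 (SE 0.13, adjusted p = 0.00884) in all 5 scalings. Cyp8b1 was lower (-0.22, SE 0.053, adjusted p = 0.0347), a call lost in 8 of 12 fits with 1 library left out and in each of the other 4 scalings. Lipoprotein genes had 1 higher gene of 23, the receptor Lrp1 (0.15, SE 0.036, adjusted p = 0.0332), which lost the call with TMM and median-ratio factors.

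Fatty acid and glucose genes gave single calls as well. Fatty acid oxidation had 2 higher genes and 1 lower, Ppargc1a, of 39 (median 0.08). Cyp4a10, a fatty acid hydroxylase induced by PPAR alpha, was near level in fasted liver, with 1992, 1424 and 2054 in controls and 1527, 1884 and 2099 in knockouts, and differed in refed liver, with 260, 175 and 266 against 673, 497 and 572. Its average of 0.67 (SE 0.13, adjusted p = 0.0131) thus joined log2 differences of 0.02 in fasted and 1.32 in refed liver, and the test of the difference between the states did not call it. Acaa1b was the other higher gene (0.30, SE 0.064, adjusted p = 0.0209), a call lost in 2 of 12 fits with 1 library left out and with TMM and median-ratio factors. Gluconeogenesis and fasting genes had 3 lower of 25, Klf15, Tsc22d3 (-0.20, SE 0.046, adjusted p = 0.0281) and Ppargc1a, a coactivator of fasting metabolism (-0.30, SE 0.077, adjusted p = 0.0452). Fatty acid synthesis and glycolysis had 1 lower of 29, Gckr (-0.18, SE 0.042, adjusted p = 0.0325), and triglyceride genes 1 higher, Lipe (0.23, adjusted p = 0.0317), and 1 lower, Lpin1 (-0.34, adjusted p = 0.0271), of 27. The calls of Tsc22d3, Ppargc1a, Gckr, Lipe and Lpin1 were each lost in 6 to 9 of the 12 fits with 1 library left out, with adjusted p up to 0.101.

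The list of growth hormone and sex-biased genes had the most calls, 5 lower and 1 higher of 33, beside a median of 0.07. Mup21, a major urinary protein gene, held 2649, 2053 and 2084 in fasted controls, 1186, 1600 and 1502 in fasted knockouts, 1717, 1777 and 1852 in refed controls and 973, 1692 and 1321 in refed knockouts. Its groups did not overlap, and it fell by 0.56 (SE 0.12, adjusted p = 0.0187), a call lost without knockout fasted mouse 1 (adjusted p = 0.0508). The Mup genes are near-identical copies, and how reads that map to several were treated is not given in the sources used here. Ugt2b38 (-0.50, adjusted p = 0.0292), Bcl6 (-0.17, 0.0398), Ghr, the growth hormone receptor (-0.29, 0.0443), and Mup3 (-0.21, 0.0498) were the other falls, and Stat5a (0.21, 0.0438) the rise. Without 1 library at a time the calls of Ugt2b38, Bcl6 and Stat5a were lost in 6, 9 and 10 of 12 fits. The Bcl6 average joined log2 differences of 0.0049 in fasted and -0.35 in refed liver, and its call was lost in each of the other 4 scalings. Among 28 acute phase genes, ceruloplasmin Cp was lower (-0.31, SE 0.059, adjusted p = 0.0145) and Socs3, a feedback inhibitor of cytokine signalling, higher (0.30, SE 0.053, adjusted p = 0.00981), and Socs3 lost the call with TMM and median-ratio factors. Xenobiotic genes had 2 lower of 30, Cyp2d22 (-0.23, SE 0.041, adjusted p = 0.00967) and the dioxin receptor Ahr (-0.27, SE 0.051, adjusted p = 0.0124). In the remaining lists of hepatocyte and general genes, pericentral genes had 1 higher and 1 lower of 29, periportal genes 1 lower of 26, coagulation and complement 1 higher of 38, iron and BMP signalling 1 lower of 29, proliferation 1 higher of 29, interferon and antigen presentation 1 lower of 36, and the unfolded protein response 1 lower of 23, Atf4 (-0.25, SE 0.054, adjusted p = 0.0235), a call lost in 2 of the 12 fits.

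Markers of other liver cells gave 4 lower genes and none higher, with no test of a list. Sinusoidal endothelial markers had 2 lower genes of 27 and a median of -0.10, stellate and matrix markers none of 19 (-0.18), Kupffer and macrophage markers 1 lower of 14 (-0.25), lymphocyte markers 1 lower of 12 (-0.07) and cholangiocyte markers none of 10 (0.08). The summed stellate values were 4735 to 5120 in fasted controls, 4322 to 4690 in fasted knockouts, 5302 to 5716 in refed controls and 4837 to 5033 in refed knockouts, so neither state overlapped. The endothelial sums were 34694 to 34944, 33417 to 34690, 35815 to 37729 and 33918 to 35264 in the same order, also without overlap, though nearly touching in fasted liver. Such separation was not particular to these cells. The sums of the unfolded protein response list, 41980 to 43172, 39950 to 40595, 43991 to 46920 and 41474 to 43846, did not overlap in either state. Those of hepatocyte transcription factors did not overlap in refed liver, with 121857 to 126865 in controls and 114069 to 118421 in knockouts. The Kupffer sums, 8325 to 9486, 8237 to 10132, 9866 to 10210 and 8815 to 9648, overlapped in fasted liver only, the lymphocyte sums were 4229 to 4758, 4532 to 4790, 4956 to 5075 and 4302 to 4776, and the cholangiocyte sums 7055 to 8281, 7599 to 9109, 8879 to 9700 and 8906 to 9654. No measured marker had a mean of 0. The called markers were Ptprb and Bmp2 (endothelial, -0.26 and -0.28), C1qc (macrophage, -0.50) and Ikzf1 (lymphocyte, -0.56), each lost in 6 or more of the 12 fits with 1 library left out. In whole liver, fewer cells of a type and less signal per cell cannot be told apart, and the part of these cells in the lower regions was not tested.

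**Figure D4:**
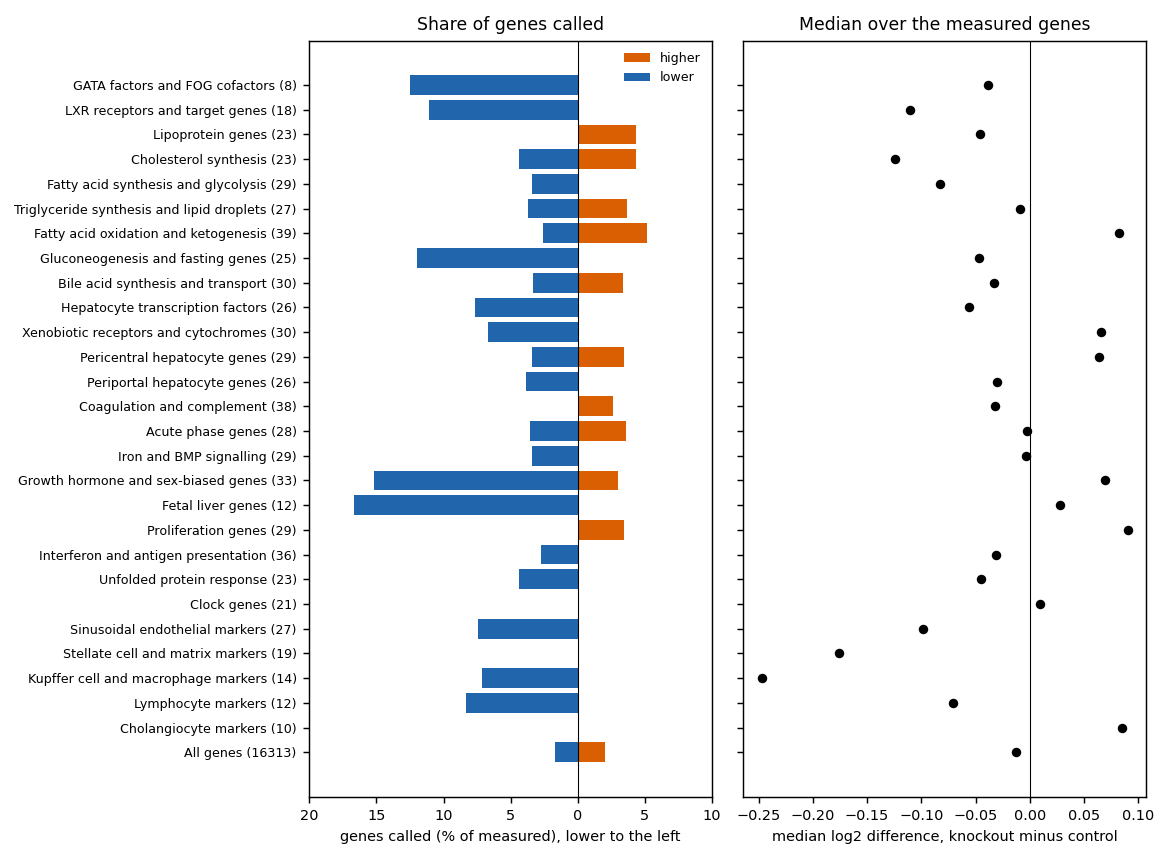
Left, share of the measured genes of each list (number in brackets) called higher (right of 0) or lower (left of 0) in the knockout, in percent, with 1 region per gene; right, median log2 difference of each list. Over all 16313 genes 2.02% were higher and 1.73% lower, and the growth hormone and sex-biased list had 5 lower and 1 higher of 33.

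The 5 strongest lower regions were near Mtss1 (-0.15), Slc45a1 (-0.16), Zbtb16 (-0.56), Cyp8b1 (-0.22) and Adk (-0.23), and all 5 were GATA4-bound. In the strongest of 4 equal groups by signal 2667 regions were bound and 13255 were not. Of those called lower in that group, 123 were bound and 207 were not. Wide, strong regions have more room for a peak. The Mtss1 region, 115807 bp wide, held 47116, 42565 and 44038 in fasted controls, 38078, 40252 and 41482 in fasted knockouts, 40999, 36456 and 42165 in refed controls and 36422, 36189 and 35214 in refed knockouts. All knockouts lay below all controls (adjusted p = 0.0421). The 5 strongest higher regions were near Lrp1 (0.15), Gse1 (0.27), Stk40 (0.17), Gpat4 (0.24) and Socs3 (0.30). Of these 10 calls, those of Adk and Socs3 held with each library left out, and all 5 higher ones and those of Mtss1, Slc45a1 and Cyp8b1 were lost with TMM and median-ratio factors.

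**Figure D5:**
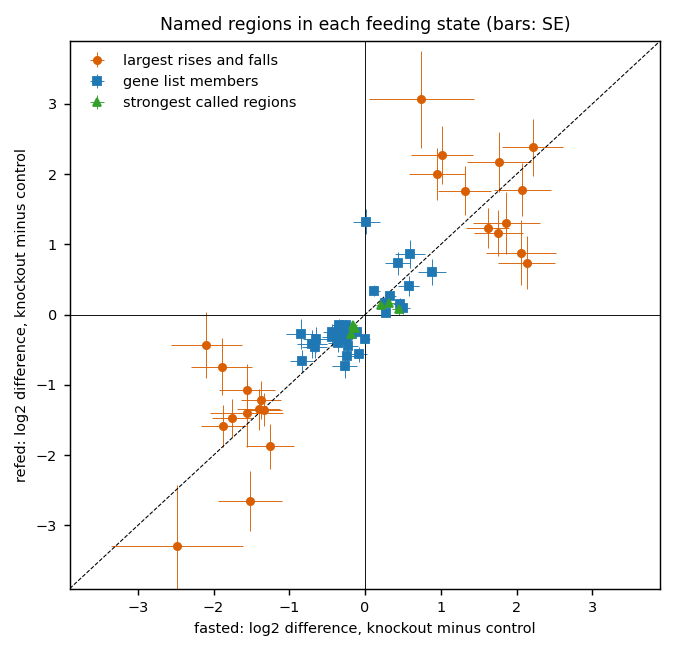
Knockout minus control log2 difference in fasted (horizontal) and refed liver (vertical) for the largest rises and falls, the called gene list members and the strongest called regions; bars are SEs and the dashed line marks equal effects. Cyp4a10 lies at 0.02 and 1.32, and the Sox11 region at 2.21 and 2.38.

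A few regions were present in one genotype and at or near 0 in the other, and were singled out after their values were seen. A region 98520 bp from Adamts1, which encodes a matrix protease, held 0, 7.35 and 4.59 in fasted controls and 0 in all 3 refed controls. The knockouts held 143, 147 and 151 in fasted and 161, 226 and 134 in refed liver, at least 65.5-fold higher than the floor of 3 reads per library in refed liver (adjusted p = 1.55e-05). On chromosome 8, a region 122445 bp from Tnks was at 0 in all 6 knockouts and held 0, 388 and 969 in fasted and 306, 297 and 298 in refed controls (adjusted p = 0.00657). In refed liver its controls were at least 89.9-fold higher than that floor, and in fasted liver control mouse 1 was at 0 as well. Another Tnks region rose (1.59, SE 0.31, adjusted p = 0.0154). Whether a processing step set low values to 0 is not given in the sources used here. The groups carry different mouse numbers of unstated meaning, so any difference in sequence between the groups cannot be told apart from genotype at these regions. Floors cover counting error only.

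The authors' deposited table of genotype effects holds 301 regions with a false discovery rate up to 0.0495. In the authors' deposited table, signal was higher in controls for 231 and higher in knockouts for 70. Of the 301 regions of the authors' deposited table, 214 were called here, all in the same direction. Both come from this series, so the shared direction is no separate evidence. Of the regions called here, 2259 were not in the authors' deposited table. The log2 ratios of the authors' deposited table lay a median of 0.11 from the fasted difference computed here, 0.36 from the average over both states and 0.61 from the refed difference.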

How the data were processed

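H3K27ac was measured by ChIP-seq in 12 mouse livers. Per the submitters' processing notes the authors used Bowtie2 and SAMtools, MACS2, DiffBind with edgeR, HOMER, bedtools, deepTools, Trim Galore and FastQC, and build mm9. The notes give no versions or roles. The authors deposited a table of normalized signal, 1 value per region and library, scaled so that every library has the same total. All values were whole reads times 1 factor per library (tolerance 0.01 of a read), so reads and depth could be recovered. The authors' deposited genotype table gives log2 ratios and a false discovery rate, an adjusted p-value (q-value).

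log2 of the value plus 1 was fitted in limma 3.58.1 (R 4.3.3) with 4 group means, an intensity trend and no filter, since the labels give no batch, and the average knockout effect was a contrast. The test was tried on simulated data first. edgeR 4.0.16 and DESeq2 1.42.0 on the recovered read counts, other scalings, pseudocounts, weights and filters, an additive model, and each library left out were the alternatives.

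Named regions were the strongest regions of Gata4, Gata6, Abca1, Scarb1, Cyp7a1 and Hamp; the 12 largest rises and falls with adjusted p under 0.05, a mean no lower than that of the median region, and all 3 knockouts on one side of all 3 controls in each state, 1 per gene, predicted genes left out; up to 4 called members per list with the smallest adjusted p; the 5 called regions with the highest mean and the 5 genes with most called regions per direction. Ghr, Mup3, Adamts1, a second Tnks region and further regions of the 6 genes were named after their values were seen. The members and the 27 gene lists were chosen with earlier results of these data known. Some regions that met this rule are not reported here. Replicate numbers follow accession order, and mouse 1 to 3 name mice only.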

Additional observations from a re-analysis of the deposited data

Results flagged for a closer look

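Regions where the knockout effect differed between the feeding states are listed because the interaction of genotype and feeding had an adjusted p under 0.05 (limma). Each value is the knockout effect in refed liver minus that in fasted liver on the log2 scale. Of the 15 regions, 6 were also called by the average effect. The region near Trim14, an antiviral adaptor gene, had a difference of 1.60: its mean was 393 in fasted controls and 126 in fasted knockouts, against 884 and 859 in refed liver. The region near Mcm5, a replication helicase gene, had -1.73, with means of 150 and 189 in fasted and 355 and 137 in refed liver. For Pou4f1 (7.89), Lrp2bp (-3.73), Redrum (4.10) and Rprm (-4.69) a group of 3 was listed at 0, so these fitted differences depend on the pseudocount. Pou4f1 held a mean of 127 in fasted controls and 0 in fasted knockouts, against 44.5 and 83.0 in refed liver.

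The other 9 regions were not called by the average effect. Their effects had opposite signs in the states: Ppil1 -0.87, Ccdc172 1.24, Gm3143 1.60, Mir1904 1.98, 2310057J18Rik 2.88, Gm13490 -2.99, Nipbl 3.61, F2r 4.59 and 1700029F12Rik 9.66. The Ppil1 region held means of 2971 in fasted controls, 3923 in fasted knockouts, 4044 in refed controls and 2941 in refed knockouts. The 1700029F12Rik region held 2.01, 0 and 0 in fasted knockouts and 36.8, 0.93 and 0 in refed controls. Its fitted difference therefore depends on the pseudocount as well.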

How the results depend on the processing

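The counts of called regions moved with the processing. The total of 2473 became 1289 with quantile normalization, 1388 with cyclic loess, 863 without the intensity trend and 5086 with DESeq2, and 891 to 2545 with 1 library left out. The 1906 higher regions became 1092 with median-ratio factors, 1140 with TMM, 742 with quantile normalization, 894 with cyclic loess and 715 without the trend (626 to 2009 with 1 library left out). The 567 lower regions became 1048 with median-ratio factors, 926 with edgeR, 2455 with DESeq2 and 148 without the trend (265 to 536). The 40 called list genes became 4 without the trend, 92 with DESeq2 and 127 over all regions of each gene (14 to 38). Fitted alone, fasted liver gave 59 calls in place of 355 and refed liver 673 in place of 1289, with fewer samples in each fit. In fits of all 12 libraries the GATA4-bound share of lower regions ranged from 22.7% (DESeq2) to 38.2% (additive model). That of higher regions ranged from 2.80% (no trend) to 8.89% (quantile). With 1 library left out the share of lower regions reached 41.8% (without control refed mouse 2). Thinning, the bound shares under other settings of all 12 libraries, the 5-scaling count and cyclic loess for single states and the interaction were added after seeing the data. Of 119 called named regions 29 kept the call under every alternative and 49 with each library left out, and none reversed. The causes were not tested. Refed controls were deeper than refed knockouts, and precision at weak regions is limited by reads per region. No paired analysis was possible because replicate numbers only follow accession order and the mouse numbers differ between groups.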

Other observations

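Called regions were not spread evenly over the chromosomes. On chromosome 8, 4.46% of 3500 regions were higher and 1.49% lower, the highest shares of any chromosome in both directions, against 2.99% and 0.89% of all regions. On the X chromosome 0.748% of 1069 regions were higher and 1.03% lower. In all 5 scalings 1.69% of chromosome 8 regions were higher and 1.20% lower. What the group numbers stand for is not given, so any effect of litter or housing cannot be told apart from genotype here.

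Some regions had signal in 1 group only. A region in an intron of Pxylp1 was at 0 in 9 libraries and held 190, 232 and 219 in the 3 refed knockouts (adjusted p of the average effect 0.00981, limma).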
